A study of Homo sapiens with 48 samples.

Results

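The transcriptional response to BV6 that was still measured after knockdown of RELA was read in MDA-MB-231 cells, an established human triple-negative breast cancer line. BV6, a Smac mimetic with a bivalent structure, binds inhibitor of apoptosis proteins and makes cells lose cIAP1 and cIAP2. The comparison sets 3 arrays of siRELA cells given 50 nM BV6 for 9 h against 3 arrays of siRELA cells left untreated, which are 6 of the 48 arrays of the series. Its members were chosen by detection alone: 9526 of the 30112 gene-mapped probes were detected on 3 or more of the 6 arrays, and they stand for 7642 of 20045 genes. The deposited detection p-value does not always follow the signal: RELB averaged 6.74 log2 with BV6 and was detected on 0 of these 3 arrays, against 5.93 untreated and 1 array. A gene called not detected may therefore still have had a signal. Cells given a control siRNA (siCtrl), with BV6 or untreated and 3 arrays each, were the reference for the response without the knockdown. Every one of these cultures was transfected, so the siRELA and siCtrl cells share the transfection. The treatment protocol states 5 nM siRNA for 36 h before BV6 for the control and TNFR1 siRNAs, and the RELA siRNA is named in the sample labels alone, with no dose or sequence of its own. Nothing in the labels says that the 3 arrays of a group came from separate cultures, so the p-values measure the spread between these samples, which may be technical.

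RELA encodes p65, the main transactivating subunit of canonical NF-kB, which is held in the cytoplasm by IkB proteins until these are degraded. A second, non-canonical branch runs through the kinase NIK (gene MAP3K14), which cIAP1 and cIAP2 normally keep low through ubiquitination within a TRAF complex. Once NIK builds up, it drives the processing of the NFKB2 product p100 to p52, which pairs with RELB. Smac mimetics are known for engaging both branches, and in many cancer lines they also raise TNF.

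RELA was checked first. It stood at 5.30, 5.38 and 5.41 log2 on the siRELA BV6 arrays and at 5.40, 5.39 and 5.38 on the siRELA untreated arrays, and it was detected on none of these 6. With siCtrl it lay between 7.43 and 8.15 after BV6 and between 6.92 and 7.61 untreated, detected on all 6. Knockdown and control arrays did not overlap. RELA was at least 5.42-fold lower in siRELA than in siCtrl cells after BV6, taking on each siRELA array the higher of its lowest detected signal and the probe's own value. Every "at least" fold here is such a bound. Where the probe's own values are the higher, it equals the plain fold of the group means and has their error.

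Detection ran from 11357 to 12466 probes on the siRELA arrays and from 10621 to 13072 on the siCtrl arrays, and arrays of 1 group correlated at 0.9784 to 0.9894. Replicates 1 and 2 of both siRNAs lay on slide 1 and replicate 3 on slide 2. Of the 13 mesenchymal and basal-like markers with a probe, 11 were detected on all 6 siRELA arrays, VIM, CD44 and AXL among them, while ZEB1 and SPARC were detected on none. Of 15 luminal markers 4 were detected on all 6 and 6, with ESR1 and CDH1 among them, on none. Of 11 leukocyte markers 9 and of 10 fibroblast and endothelial markers 9 were on no siRELA array, and CD68 was the leukocyte marker detected on all 6. Summed over the markers in the fit, the linear signal of the mesenchymal list was 71866 to 74497 with BV6 and 72802 to 76223 untreated. That of the luminal list was 6133 to 7281 with BV6 and 7299 to 7771 untreated, and that of the leukocyte list 1775 to 2542 with BV6 and 2130 to 2573 untreated; their part in the results was not tested.

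With siRELA, BV6 left a short and one-sided list of changes: 26 genes rose, which is 0.34% of the 7642 tested, and 1 fell, which is 0.0131%. NFKB2, NAV3 and SNORD3C among them were detected on no untreated siRELA array and entered the test through their BV6 arrays alone, so their calls follow in part from that filter. KCNS3 and H2BC11, with 3 BV6 arrays and 1 untreated array, also depended on their BV6 arrays. Where detection on all 6 arrays was required, 12 genes were called higher. NFKB2, NFKBIE, MAP3K14, CD83, KCNS3 and RNU1-3 were among those then left untested. The rises comprised small nuclear and nucleolar RNAs, the NF-kB genes NFKB2, NFKBIE and NFKBIA, the kinase gene MAP3K14, and stress and surface genes such as ATF3, GADD45A and CD83. With siCtrl the same fit called 168 genes higher (2.2% of 7635) and 72 lower (0.943%). All 3 BV6 arrays lay above all 3 untreated arrays for 418 genes with siRELA (5.47%) and below them for 402 (5.26%). The median change over all tested genes was -0.00831 log2 with siRELA and -0.0148 with siCtrl, and the median standard error was 0.159 in both. At an unadjusted p under 0.05, 241 genes were higher and 193 lower with siRELA. With the replicate number as a block, 31 genes were called higher and 3 lower, and the genes added were CD59, CXCL8, LRIG1, TNFSF10 and ZMIZ2 among the rises and MEGF9 and OLFML2A among the falls. On the 6 siRELA arrays normalised and fitted alone 14 were called higher, with arrays scaled to a common median 17, and without BV6 replicate 1 the count was also 17.

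**Figure D1:**
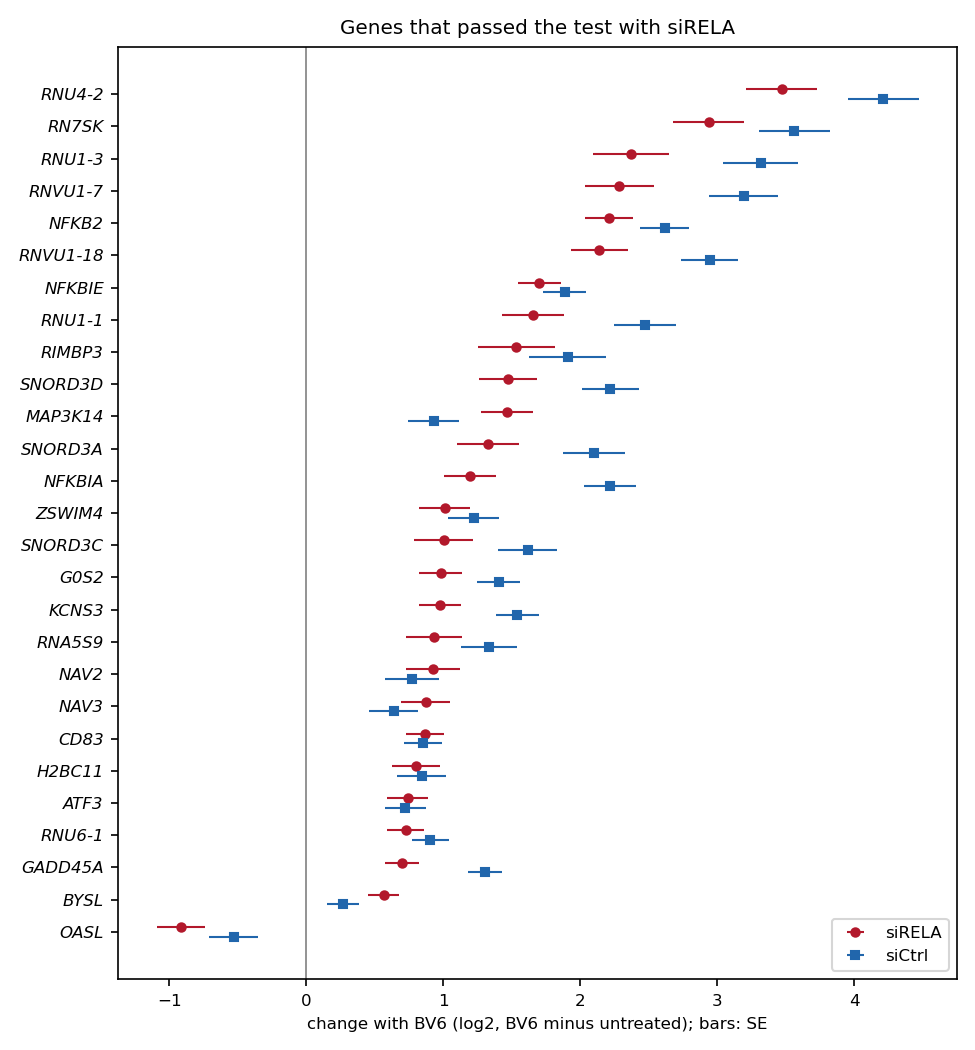
Change with BV6 (log2, BV6 minus untreated, horizontal axis) of the 27 genes called with siRELA, with siRELA (red circles) and siCtrl (blue squares), 3 arrays per group, bars showing the standard error. The circle lies left of the square for 20 of the 26 genes that rose, and MAP3K14 is the gene furthest to the other side, at 1.47 with siRELA and 0.93 with siCtrl.

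Of the 26 genes that rose with siRELA, 24 (92.3%) were also called higher with siCtrl, and these are 14.3% of the 168 called there. The remaining 2 were BYSL, which did not pass with siCtrl, and SNORD3C, which was not tested there because too few siCtrl arrays detected it. The rise was smaller with siRELA than with siCtrl for 20 of the 26. This count is a description, since the genes were chosen by the siRELA values.

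Subunits and inhibitors of NF-kB held the largest protein-coding rises. NFKB2, which encodes p100, the precursor of p52, stood at 8.34, 8.50 and 8.32 log2 on the BV6 arrays, against 6.27, 6.20 and 6.07 on the untreated arrays. The groups lay far apart and differed by 2.21 ± 0.18 log2 (SE, adjusted p = 1.74e-08), which is 4.62-fold. No untreated array detected the probe, so the size of this fold is uncertain. A second NFKB2 probe gave 2.06 log2, and another, detected on none of the 6 arrays, gave 0.01. Within slide 1 the change was 2.19 and within slide 2 it was 2.25. The siCtrl cells changed by 2.62 ± 0.18, and the difference between the responses, -0.41 log2, had a 95% interval of -0.92 to 0.11.

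NFKBIE, which encodes IkB-epsilon, an inhibitor that retains NF-kB in the cytoplasm, had 9.10, 8.97 and 8.79 log2 with BV6 and 7.63, 7.07 and 7.07 untreated. No BV6 array overlapped an untreated one, and the change was 1.70 ± 0.16 (adjusted p = 1.88e-07), against 1.89 ± 0.16 with siCtrl. The interval of the difference ran from -0.65 to 0.27. NFKBIA, which encodes IkB-alpha, the inhibitor resynthesised first after canonical activation, had 10.34, 10.12 and 10.18 log2 with BV6 and 9.06, 8.58 and 9.41 untreated. Its change of 1.19 ± 0.19 (adjusted p = 0.00105) compared with 2.22 ± 0.19 with siCtrl. The difference for NFKBIA, -1.02 ± 0.27 with an interval of -1.58 to -0.46, had an adjusted p of 0.342, and on the authors' series matrix and without background correction it was among the 5 genes called. NFKB1, which encodes p105 and p50, averaged 11.10 ± 0.13 log2 with BV6 and 10.73 ± 0.02 untreated (SD, n = 3 each). Its arrays did not overlap, but a difference of 0.38 ± 0.13 (SE) did not pass (adjusted p = 0.505). In all, 3 of the 7 measured members of the subunit and inhibitor list rose and 0 fell, beside 0.34% of all genes. Their median change was 0.376 log2 with siRELA and 0.92 with siCtrl, and 6 of the 8 members tested with siCtrl rose there, beside 2.2% of all genes. This list was chosen with earlier results of these data known, so its counts are a description. RELB, the partner of p52, was detected on 1 of the 6 siRELA arrays and was not tested; its values averaged 6.74 ± 0.31 log2 with BV6 and 5.93 ± 0.08 untreated (SD, n = 3 each).

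MAP3K14, the gene of NIK, had 7.79, 7.63 and 8.08 log2 on the siRELA BV6 arrays, against 6.38, 6.28 and 6.45 untreated. The 2 groups were separated by more than 1 log2 unit on every array, and the change was 1.47 ± 0.19 (adjusted p = 4.27e-05). With siCtrl it was 0.93 ± 0.19 (adjusted p = 0.00429), so MAP3K14 rose with both siRNAs. The difference of 0.54 ± 0.26 did not pass (adjusted p = 0.932) and its interval ran from -0.01 to 1.08. Within slide 1 the siRELA change was 1.38 and within slide 2 it was 1.64. BIRC2, the gene of cIAP1, had 10.44, 10.69 and 10.60 log2 with BV6 and 9.63, 10.21 and 10.16 untreated, and its change of 0.57 ± 0.16 did not pass (adjusted p = 0.206) although the groups did not overlap. The kinase genes IKBKB, CHUK and IKBKG gave -0.17, 0.07 and -0.04 log2 and did not pass. Of the 5 genes of this complex tested with siRELA, MAP3K14 was the 1 that rose and 0 fell, beside 0.34% and 0.0131% of all genes. TRAF1, also of this complex, was not tested because too few siRELA arrays detected it, and it gave 0.86 ± 0.17 log2. When no detection filter was applied, TRAF1 was called higher with siRELA as well. BIRC3, the gene of cIAP2, had no measured value here.

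**Figure D2:**
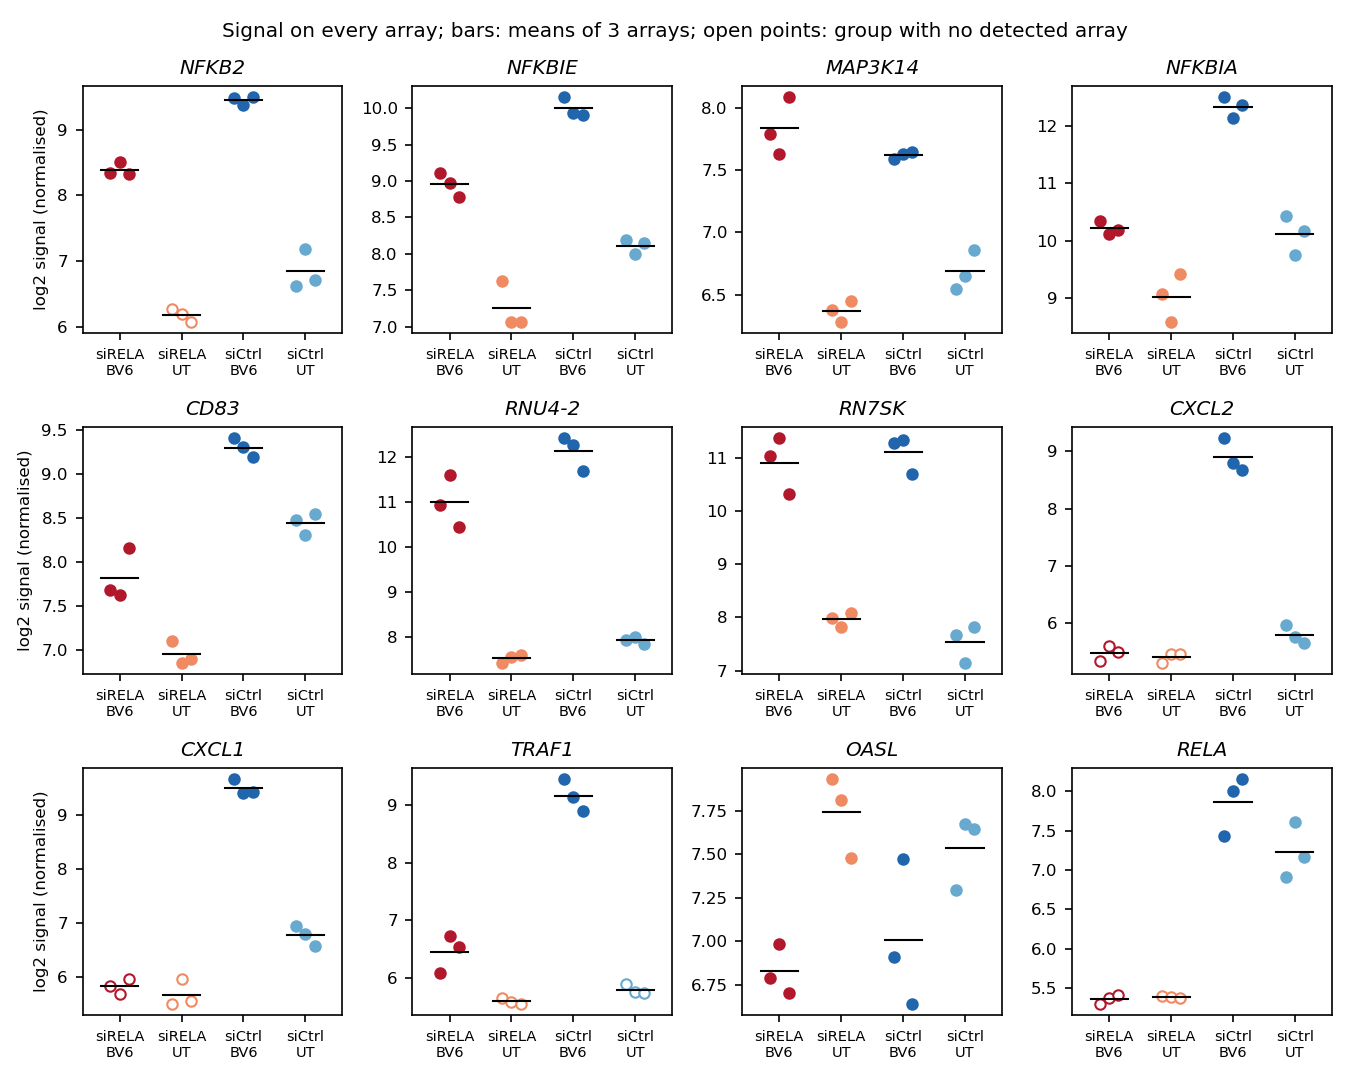
Normalised log2 signal (vertical axis) of 12 genes on each array of siRELA BV6, siRELA untreated (UT), siCtrl BV6 and siCtrl untreated cells, 3 arrays per group; bars are means, and open points mark a group in which no array detected the probe. NFKB2, NFKBIE and MAP3K14 separate by treatment with both siRNAs, while CXCL2 and CXCL1 lie between 5.31 and 5.96 on all 6 siRELA arrays.

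Short non-coding RNAs gave the largest changes in siRELA cells. RNU4-2, a gene of the U4 RNA of the spliceosome, had 10.93, 11.60 and 10.45 log2 with BV6 and 7.42, 7.55 and 7.60 untreated, a change of 3.47 ± 0.26 (adjusted p = 9.59e-09). RN7SK, the RNA that holds the elongation factor P-TEFb inactive, had 11.03, 11.37 and 10.31 with BV6, against 7.99, 7.82 and 8.09 untreated, and changed by 2.94 ± 0.26 (adjusted p = 9.06e-08). For both genes replicate 3 of the BV6 group, the one on slide 2, was the lowest of the 3 and still over 2 log2 units above every untreated array. The differences within slides 1 and 2 were 3.78 and 2.86 for RNU4-2 and 3.29 and 2.23 for RN7SK. A second RN7SK probe gave 3.14.

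The U1 RNA, which recognises the 5′ splice site, was represented by RNU1-3 (9.66, 9.92 and 8.69 log2 with BV6, 7.04, 7.23 and 6.88 untreated), RNVU1-7, RNVU1-18 and RNU1-1. They rose by 2.37 ± 0.28, 2.29 ± 0.25, 2.14 ± 0.21 and 1.66 ± 0.23. The U3 genes SNORD3D, SNORD3A and SNORD3C, whose RNA guides early processing of ribosomal RNA, followed. SNORD3D and SNORD3A rose by 1.47 ± 0.21 and 1.32 ± 0.23. SNORD3C, detected on no untreated array, rose by 1.00 ± 0.21 (2.00-fold), a size that is uncertain for that reason. U1 and U3 copies are near-identical, so which copy a probe reads is uncertain within each family. RNU6-1, a U6 gene, rose by 0.73 ± 0.13 and RNA5S9, a 5S ribosomal RNA gene, by 0.93 ± 0.20. The call was lost without certain single arrays for SNORD3C (5 of 6 arrays, adjusted p up to 0.329), RNA5S9 (4 of 6, up to 0.376) and RNU6-1 (BV6 replicates 1 and 2, 0.0517 to 0.0993).

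On the list of short RNA genes, which does not hold RNVU1-7, RNVU1-18 or RNA5S9, 8 of 11 measured genes rose with siRELA and 0 fell, beside 0.34% of all genes called higher; SNORD3C is 1 of the 8. The list was chosen with earlier results of these data known, so this count is a description. Its U1 and U3 genes are near-identical copies and do not count as separate members. RPPH1, the RNA of RNase P (0.57 log2, adjusted p = 0.507), SNORD13 (0.20) and RN7SL1, the RNA of the signal recognition particle (0.05), did not pass. The median was 1.32 log2 with siRELA and 2.10 with siCtrl, beside -0.00831 over all genes with siRELA. The response difference of RNU4-2 was -0.74 (interval -1.50 to 0.02) and that of RN7SK -0.62 (interval -1.38 to 0.13), and neither passed. The labelling kit named in the protocol is of a kind that generally primes on poly(A) tails, which these RNAs mostly lack, and which form of them the probes read was not tested. Ribosomal RNA was read as well: RNA18SN5 gave 0.37 ± 0.19 with siRELA (adjusted p = 0.944) and rose by 1.31 ± 0.19 with siCtrl, and RNA28SN5 gave 0.35 ± 0.16 with siRELA (adjusted p = 0.879) and rose by 0.76 ± 0.16 with siCtrl. The part of RNA quality or priming in these values was not tested.

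Among the other protein-coding rises, CD83, a surface immunoglobulin-family protein of activated immune cells and a known NF-kB target, had 7.69, 7.63 and 8.15 log2 with BV6 and 7.11, 6.86 and 6.90 untreated. The change was 0.87 ± 0.14 (adjusted p = 0.00105), with a second probe at 1.06 and siCtrl cells at 0.85 ± 0.14. The difference between the 2 responses, 0.02, had an interval of -0.39 to 0.42. G0S2, an inhibitor of the lipase ATGL, had 10.00, 9.90 and 10.26 with BV6 and 9.07, 8.98 and 9.17 untreated, and rose by 0.98 ± 0.16 (adjusted p = 0.00116). KCNS3, a modifying subunit of voltage-gated potassium channels, had 7.37, 7.34 and 7.40 with BV6 and 6.36, 6.14 and 6.69 untreated, and rose by 0.98 ± 0.15. GADD45A, a stress-induced growth arrest gene, had 9.80, 9.65 and 9.69 with BV6 and 9.03, 9.01 and 9.01 untreated, a rise of 0.70 ± 0.12 (adjusted p = 0.00355) against 1.30 ± 0.12 with siCtrl. No untreated array of these 4 genes reached its BV6 arrays. A second GADD45A probe, detected on all 6 siRELA arrays, gave a smaller rise of 0.51 ± 0.16. Its response difference was -0.89, beside -0.61 for the first probe. Fitted on the 6 siRELA arrays alone, CD83 (adjusted p = 0.0802) and GADD45A (adjusted p = 0.0712) were no longer called, and GADD45A was also lost with arrays scaled to a common median (adjusted p = 0.125).

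The remaining protein-coding rises lost the call when certain arrays were left out. ATF3, a stress-induced factor of the AP-1 type, rose by 0.74 ± 0.15 (adjusted p = 0.0189), and the call was lost in 4 of 6 fits that left out 1 siRELA array (adjusted p 0.0569 to 0.183) with changes of 0.64 to 0.77. The neuron navigator genes NAV2 (0.92 ± 0.20) and NAV3 (0.87 ± 0.18, or 1.83-fold, with no untreated array detecting it) each lost the call in 4 of 6 such fits. ZSWIM4, a zinc-finger gene (1.01 ± 0.19, adjusted p = 0.00625), lost it without replicate 1 of either group. RIMBP3 (1.53 ± 0.28, adjusted p = 0.00604) is a gene with near-identical copies on chromosome 22. It lost the call without replicate 2 of either group, with changes of 1.11 and 1.43. H2BC11, a histone H2B gene (0.80 ± 0.18, adjusted p = 0.0398), lost it in all 6 fits, with adjusted p up to 0.271 and changes of 0.69 to 0.88. BYSL, a ribosome assembly factor, had 9.56, 9.43 and 9.67 log2 with BV6 and 9.06, 9.07 and 8.84 untreated, rose by 0.56 ± 0.12 (adjusted p = 0.0189) and lost the call in 3 of 6 fits, with changes of 0.49 to 0.56. With siCtrl BYSL gave 0.27 ± 0.12 (adjusted p = 0.248), and the difference between the responses, 0.30, did not pass (adjusted p = 0.954). Second probes of ATF3 (0.01 and 0.05) and RIMBP3 (0.08 and 0.15) were detected on no siRELA array and gave values near 0, whereas a second detected NAV2 probe gave 0.95. Of the other probes, 2 undetected ones of NAV2 gave 0.50 and -0.15, an undetected one of KCNS3 gave 0.47, and one of ZSWIM4, detected on 2 arrays, gave 0.29. All 27 calls had the same direction within slide 2, which holds replicate 3 of the same arrays and is no independent check. Of the 27, 16 passed with each of the 6 arrays left out in turn. NFKB2, NFKBIE, NFKBIA, MAP3K14, CD83, G0S2, KCNS3, GADD45A, RNU4-2, RN7SK, the 4 U1 genes, SNORD3A and SNORD3D are those 16.

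OASL, an interferon-induced relative of the 2′-5′ oligoadenylate synthetases, was the 1 gene that fell. It had 6.79, 6.99 and 6.70 log2 with BV6 and 7.93, 7.81 and 7.48 untreated, and fell by 0.91 ± 0.18 (adjusted p = 0.0114). With siCtrl it gave -0.53 ± 0.18 (adjusted p = 0.119). The call was lost in 4 of 6 fits without 1 array, with adjusted p from 0.0684 to 0.112. Another OASL probe, detected on no siRELA array, gave -0.17. IFIT1, an interferon-induced protein that binds foreign 5′ RNA ends, had 9.47, 9.38 and 9.37 with BV6 and 10.13, 9.85 and 9.81 untreated. Its difference of -0.52 ± 0.15 did not pass with siRELA (adjusted p = 0.235), although the arrays did not overlap, and with siCtrl it fell by 0.79 ± 0.15. HERC6 gave -0.60 ± 0.19 (adjusted p = 0.373). Of the 22 measured interferon-stimulated genes 0 rose and 1 fell, beside 0.34% and 0.0131% of all genes. Among the 22, 3 had all BV6 arrays below the untreated ones (beside 5.26% of all genes) and the median was -0.11 log2. The members of the IRF, STAT and GBP list had 0 calls among 11, with a median of 0.0213. At the all-gene shares most lists of 11 genes would hold 0.

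Chemokine and cytokine genes held no call with siRELA, and most were not tested there because too few arrays passed the detection p-value, whose link to the signal is loose. Of 27 on the list, 5 were members, and with 0.34% of all genes called higher, 0 calls among 5 do not set the list apart. With siCtrl 11 were tested and 8 rose, beside 2.2% of all genes. CXCL8, the neutrophil chemokine IL-8, had 8.19, 8.23 and 7.64 log2 with BV6 and 7.18, 6.53 and 7.05 untreated. All BV6 arrays lay above the untreated ones, and the difference of 1.10 ± 0.26 had an adjusted p of 0.0662, which became 0.000713 with the replicate block. Without BV6 replicate 3 CXCL8 was also called. CXCL8 rose with siCtrl by 1.65 ± 0.26, and the interval of the difference ran from -1.29 to 0.20. IL32, which overlapped, gave 0.64 ± 0.22 (adjusted p = 0.5), IL15 gave 0.28 ± 0.16 and IL11 gave -0.42 ± 0.23. IL6 was detected on none of the 6 siRELA arrays, where it averaged 6.66 ± 0.26 log2 with BV6 and 5.81 ± 0.06 untreated, beside 10.00 ± 0.52 and 8.45 ± 0.36 with siCtrl (SD, n = 3 each). In bulk RNA, fewer cells expressing a gene and less RNA of it per cell cannot be told apart.

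Death receptor genes had 0 calls among the 13 measured members of the TNF family list, with a median of 0.0663. Over all genes 0.34% were called higher and 0.0131% lower, so a count of 0 does not set this list apart. TNFRSF10B, the TRAIL receptor DR5, had 10.79, 10.67 and 10.82 log2 with BV6 and 10.30, 10.11 and 10.44 untreated, a difference of 0.48 ± 0.13 (adjusted p = 0.172). TNFRSF10A, which encodes DR4, gave 0.76 ± 0.26 (adjusted p = 0.501). TNFSF10, the gene of TRAIL, had 8.83, 8.96 and 7.90 with BV6 and 8.30, 8.23 and 6.78 untreated. Its groups overlapped because replicate 3 was low in both, and the difference of 0.79 ± 0.44 (adjusted p = 0.961) had an adjusted p of 0.0463 with the replicate block.

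AP-1 and immediate early genes, which serum, stress and MAP kinases switch on within minutes, had 20 measured members. Of these ATF3 rose and 0 fell, beside 0.34% and 0.0131% of all genes. Their median was 0.147 log2 with siRELA and 0.563 with siCtrl over the same genes, and 7 of 19 rose with siCtrl. EGR1 had 8.38, 8.63 and 7.84 log2 with BV6 and 6.94, 7.65 and 7.92 untreated, so that untreated replicate 3 lay above the lowest BV6 array (0.78 ± 0.22, adjusted p = 0.214). FOSB gave 0.66 ± 0.18 (adjusted p = 0.194) and FOS gave 0.58 ± 0.21. KLF2, with all BV6 arrays below the untreated ones, gave -0.34 ± 0.12. Among the MAP kinase feedback genes 0 of 10 were called, as most lists of this size would give at the all-gene shares. SPRY1, an inhibitor of receptor tyrosine kinase signalling, had 9.11, 8.99 and 9.15 with BV6 and 9.57, 9.58 and 9.84 untreated (-0.58 ± 0.15, adjusted p = 0.135), and fell by 0.97 ± 0.15 with siCtrl. DUSP1 gave 0.37 ± 0.14 and did not pass.

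**Figure D3:**
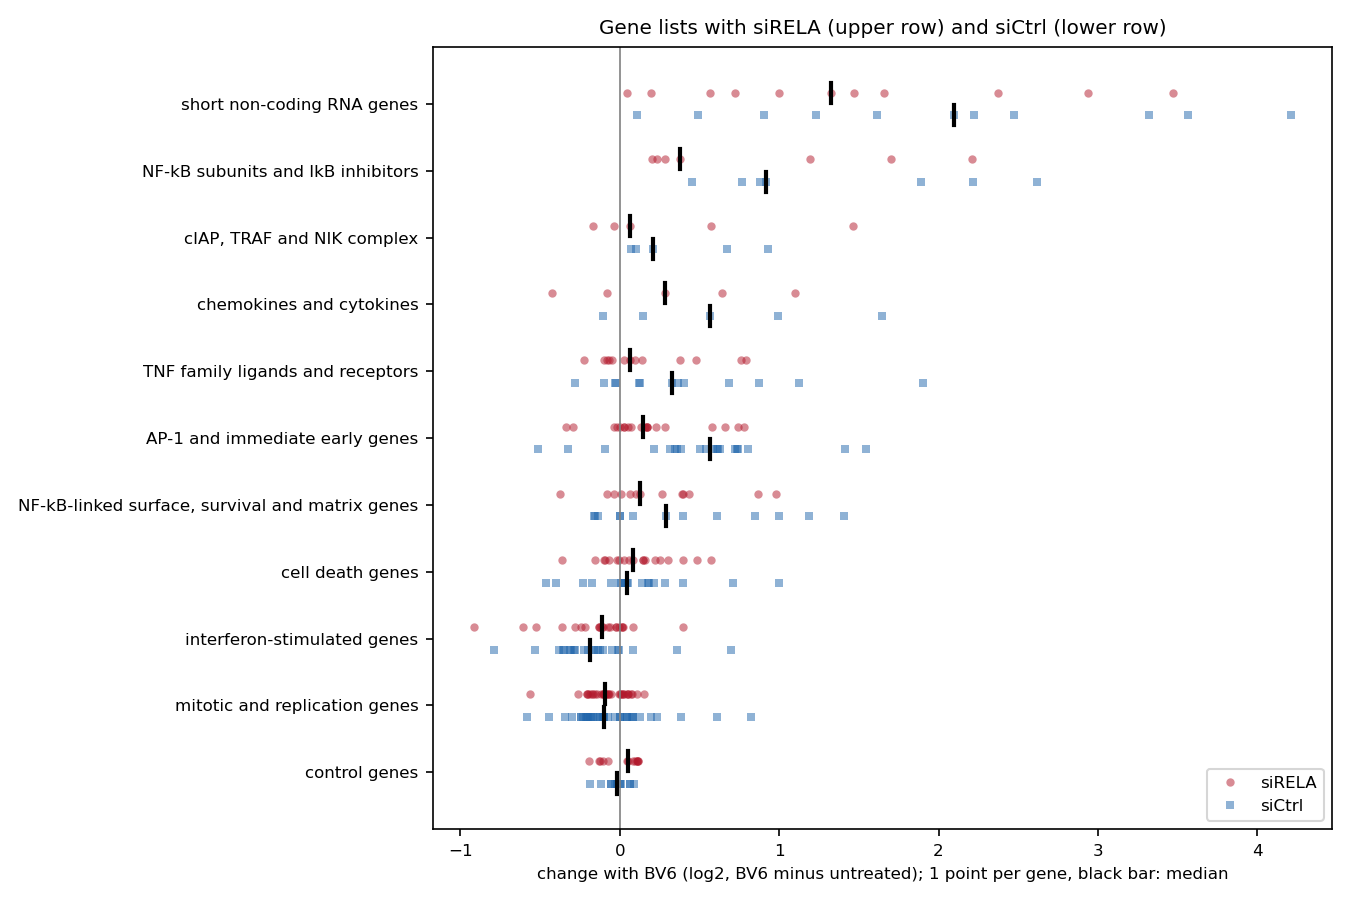
Change with BV6 (log2, horizontal axis) of each measured gene in 11 lists, with siRELA in the upper row (red circles) and siCtrl in the lower row (blue squares); black bars are medians. The medians are 1.32 and 2.10 for the short RNAs, 0.376 and 0.92 for the NF-kB subunits and inhibitors, and 0.0516 and -0.0162 for the control genes.

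Lists outside NF-kB and the short RNAs held few calls or none with siRELA. CD83 and G0S2 rose among 13 measured NF-kB-linked surface, survival and matrix genes (median 0.125), and GADD45A among 21 genes of the GADD45 and integrated stress response list (median 0.0274). The 19 cell death genes held 0 calls (median 0.0842), and TRADD, an adaptor of the TNF receptor, gave 0.58 ± 0.21 and BAK1 0.49 ± 0.22. The 7 tested genes of A20 and its partners also held 0, with TNIP1 at 0.34 ± 0.18. TNFAIP3, the gene of A20, was left out because no probe of it was detected on 3 or more of the 12 siRELA and siCtrl arrays. In untransfected MDA-MB-231 cells, followed below, it was higher by 1.91 ± 0.18 log2 at 9 h of BV6. The 36 mitotic and replication genes (median -0.0912), 22 hypoxia and glycolysis genes (-0.0421), 16 ER chaperone genes (-0.02), 16 antioxidant genes (-0.00876), 15 antigen presentation genes (0.122) and 13 control genes (0.0516) had 0 calls each. Over all genes 0.34% were called higher and 0.0131% lower. At these shares most lists of such sizes would hold 0 calls, so a count of 0 does not set a list apart. PLK1, a mitotic kinase gene, gave -0.56 ± 0.21 (adjusted p = 0.659). HLA-G gave 0.41 ± 0.17, EDEM1, an ER degradation gene, -0.32 ± 0.16, KDM3A, a histone demethylase, -0.25 ± 0.17 and SLC40A1, the iron exporter ferroportin, -0.39 ± 0.17, and none of these passed.

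The difference between the siRELA and siCtrl responses was tested directly over 8712 genes. It was more negative with siRELA for 4 genes (0.0459%) and more positive for 0 (0% of genes; limma called none, while 212 genes were more positive and 258 more negative at an unadjusted p under 0.05). CXCL2, a neutrophil chemokine, had 5.33, 5.61 and 5.50 log2 with BV6 and 5.31, 5.46 and 5.47 untreated in siRELA cells, beside 9.23, 8.80 and 8.67 with BV6 and 5.97, 5.75 and 5.65 untreated in siCtrl cells. CXCL1, a related chemokine, had 5.82, 5.68 and 5.96 with BV6 and 5.50, 5.96 and 5.54 untreated in siRELA cells, beside 9.67, 9.42 and 9.44 with BV6 and 6.95, 6.79 and 6.58 untreated in siCtrl cells. Both were high in siCtrl BV6 cells alone. They were detected on 3 BV6 arrays and 1 untreated array with siCtrl and on no siRELA array. They therefore entered the test through the group in which they were high, and their calls follow in part from that filter. The differences were -3.05 ± 0.34 for CXCL2 (adjusted p = 1e-05) and -2.58 ± 0.26 for CXCL1 (adjusted p = 2.75e-06).

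TRAF1, an adaptor that binds TRAF2 and the cIAPs, had 6.10, 6.74 and 6.54 log2 with BV6 and 5.65, 5.59 and 5.56 untreated in siRELA cells, beside 9.44, 9.13 and 8.89 with BV6 and 5.90, 5.76 and 5.74 untreated in siCtrl cells. Its siRELA arrays were separated by treatment, with a change of 0.86 ± 0.17 log2 (1.81-fold) and 2 of 3 BV6 arrays detecting it. Without a detection filter TRAF1 was among the genes called higher with siRELA. The response difference was -2.50 ± 0.24 (adjusted p = 2.19e-06). A second TRAF1 probe, detected on none of the 6 siRELA arrays, differed by -0.55. SNORA80A, a box H/ACA small nucleolar RNA, differed by -1.57 ± 0.19 (adjusted p = 4.87e-05). TRAF1 and SNORA80A had too few detecting siRELA arrays to enter the test without siCtrl arrays. CXCL1, CXCL2 and SNORA80A were detected on none of the 6 siRELA arrays, so their change there has no measured size and the fitted differences depend on the array floor. After BV6 they were 12.9-fold, at least 10.5-fold and at least 2.74-fold lower in siRELA than in siCtrl cells. The 12.9-fold of CXCL1 is the plain fold of its group means. With the replicate block 8 genes were called more negative, the additions being JUNB (-1.13), TNFRSF1B (-0.96), ZNF24 (-1.16) and ZNF697 (-1.01), and PGCKA1 was called more positive (1.13). The differences within slides 1 and 2 were -3.07 and -3.00 for CXCL2, -2.65 and -2.45 for CXCL1, and -2.66 and -2.17 for TRAF1.

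The promoters shown here are those of the 3 largest siRELA rises and the 3 most negative response differences that the promoter table holds (NFKBIE and the short RNA genes are not in it). NFKBIA, called with siRELA, was added after its values were seen. Each runs from 250 bases before to 50 bases after the annotated start, 5′ to 3′ on the strand of the gene, in RefSeq sequence of GRCh38.p14. Capitals mark matches to the kappa B consensus on either strand.
CXCL2, chr4:74099146-74099445, minus strand: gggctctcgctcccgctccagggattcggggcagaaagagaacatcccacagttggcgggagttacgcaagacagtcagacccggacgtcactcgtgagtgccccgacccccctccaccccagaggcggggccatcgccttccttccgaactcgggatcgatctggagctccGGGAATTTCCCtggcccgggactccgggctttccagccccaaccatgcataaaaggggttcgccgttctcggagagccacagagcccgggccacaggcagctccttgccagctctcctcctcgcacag
CXCL1, chr4:73869143-73869442, plus strand: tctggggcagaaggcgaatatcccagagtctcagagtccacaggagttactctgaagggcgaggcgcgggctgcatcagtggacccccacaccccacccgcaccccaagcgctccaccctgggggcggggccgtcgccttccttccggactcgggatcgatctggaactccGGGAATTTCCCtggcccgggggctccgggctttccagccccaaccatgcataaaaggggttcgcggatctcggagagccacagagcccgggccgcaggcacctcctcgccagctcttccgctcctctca
TRAF1, chr9:120929122-120929421, minus strand: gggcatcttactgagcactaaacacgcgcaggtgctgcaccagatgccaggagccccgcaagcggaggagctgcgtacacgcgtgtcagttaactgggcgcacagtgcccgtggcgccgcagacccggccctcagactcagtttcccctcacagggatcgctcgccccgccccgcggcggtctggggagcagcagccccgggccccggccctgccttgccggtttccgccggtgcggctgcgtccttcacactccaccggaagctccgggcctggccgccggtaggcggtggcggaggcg
NFKB2, chr10:102393860-102394159, plus strand: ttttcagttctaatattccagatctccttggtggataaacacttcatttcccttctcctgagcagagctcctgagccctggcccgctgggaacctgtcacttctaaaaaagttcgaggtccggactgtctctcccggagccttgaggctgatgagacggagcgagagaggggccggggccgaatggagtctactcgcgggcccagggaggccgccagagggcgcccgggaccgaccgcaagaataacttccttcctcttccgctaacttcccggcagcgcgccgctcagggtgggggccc
MAP3K14, chr17:45316971-45317270, minus strand: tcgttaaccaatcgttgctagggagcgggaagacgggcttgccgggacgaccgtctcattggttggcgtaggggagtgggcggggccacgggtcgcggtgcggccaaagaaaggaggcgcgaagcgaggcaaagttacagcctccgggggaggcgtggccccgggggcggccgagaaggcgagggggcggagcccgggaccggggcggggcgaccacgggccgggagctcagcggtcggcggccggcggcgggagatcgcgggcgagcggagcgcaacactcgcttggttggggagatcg
RIMBP3, chr22:18611870-18612169, minus strand: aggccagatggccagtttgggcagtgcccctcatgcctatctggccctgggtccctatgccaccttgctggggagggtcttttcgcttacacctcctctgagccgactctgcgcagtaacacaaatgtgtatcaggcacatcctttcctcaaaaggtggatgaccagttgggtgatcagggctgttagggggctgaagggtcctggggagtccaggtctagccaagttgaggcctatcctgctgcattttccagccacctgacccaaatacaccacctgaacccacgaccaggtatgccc
NFKBIA, chr14:35404700-35404999, minus strand: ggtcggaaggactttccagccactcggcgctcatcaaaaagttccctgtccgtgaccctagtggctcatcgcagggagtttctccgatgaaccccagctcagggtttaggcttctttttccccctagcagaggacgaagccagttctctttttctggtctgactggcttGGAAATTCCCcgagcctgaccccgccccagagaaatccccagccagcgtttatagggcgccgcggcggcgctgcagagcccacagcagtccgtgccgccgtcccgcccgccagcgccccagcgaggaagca

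CXCL2 and CXCL1 hold the same 11-base match, which reads on both strands with overlap and begins 78 and 79 bases before the start. NFKBIA holds a 10-base match that begins 81 bases before it. The windows of TRAF1, NFKB2, MAP3K14 and RIMBP3 hold none in these letters. Over 27305 promoters of the same length, 5.72% hold the kappa B consensus and 7.76% the AP-1 site TGANTCA on either strand. Among the 12 genes called higher with siRELA that the table holds, 1 has a kappa B match and 0 have the AP-1 site. A match is a description of the letters and does not show binding.

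To follow BV6-responsive genes that were not chosen on these arrays, genes were taken from 16 arrays of untransfected MDA-MB-231 cells, where 96 genes were higher at 9 h of BV6 (0.965% of 9944) and 27 lower (0.272%). The 2 BV6 arrays at 9 h lay on slides 3 and 4, and the 6 untreated arrays, 2 each at 0, 9 and 15 h, all on slide 3. With slide as a term 131 genes were higher, 85 of them shared with the 96, and against the 9 h untreated arrays alone 50 were, all among the 96; the median siRELA changes of those genes were 0.49 and 0.75 log2, and their siCtrl medians 0.92 and 1.53. Of the 96, 89 passed the detection filter in the siRELA and siCtrl cells, 87 on the same probe. Their median change was 0.52 log2 with siRELA and 0.99 with siCtrl, beside 1.17 in the untransfected cells, and -0.01 over all 8712 genes with siRELA. The 1.17 comes from the arrays that chose these genes and may be raised by that choice. With siRELA 87 of the 89 changes were above 0, and 79 were smaller than with siCtrl, beside 4195 of all 8712 genes. Those of the 89 that were not members needed siCtrl arrays to pass the detection filter, and they count here too. Of the 89, 21 were called with siRELA, beside 0.34% of all genes called higher, and 65 with siCtrl, beside 2.2%. Among the 89, 71 were members, and 45 of these had all BV6 arrays above the untreated ones (beside 5.47% of all genes). The difference between the responses lay wholly below 0 in its 95% interval for 39 genes and wholly above 0 for none of the 89, with CXCL1, CXCL2, TRAF1 and SNORA80A passing after adjustment. By the equivalent criterion, an unadjusted p under 0.05, 258 of all 8712 genes were more negative and 212 more positive. With siRNAs against the TNF receptor TNFR1 and the factor IRF1 the medians of the same genes were 0.71 and 0.49.

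The 6 largest siRELA changes among these genes were those of RNU4-2, RN7SK, RNU1-3, RNVU1-7, NFKB2 and RNVU1-18, from 3.47 to 2.14 log2. The 6 smallest were those of EDN1, the gene of endothelin-1 (-0.02 with siRELA, 0.72 with siCtrl), SSTR2, a somatostatin receptor (-0.0017 and 0.99), SNORA25 (0.01 and 0.79), TNFAIP2 (0.02 and 1.20), the AP-1-related factor MAFF (0.03 and 0.73) and the metallothionein MT1E (0.06 and 0.09). SSTR2 showed the overlap on every array, with 7.90, 8.47 and 8.19 log2 with BV6 and 8.01, 7.97 and 8.59 untreated in siRELA cells. With siCtrl, SSTR2, SNORA25 and MAFF rose, EDN1 did not pass (adjusted p = 0.113) and TNFAIP2 was not tested for too few detected arrays. None of the 6 passed in the test of the response difference (SSTR2 -0.99 ± 0.26, adjusted p = 0.318).

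**Figure D4:**
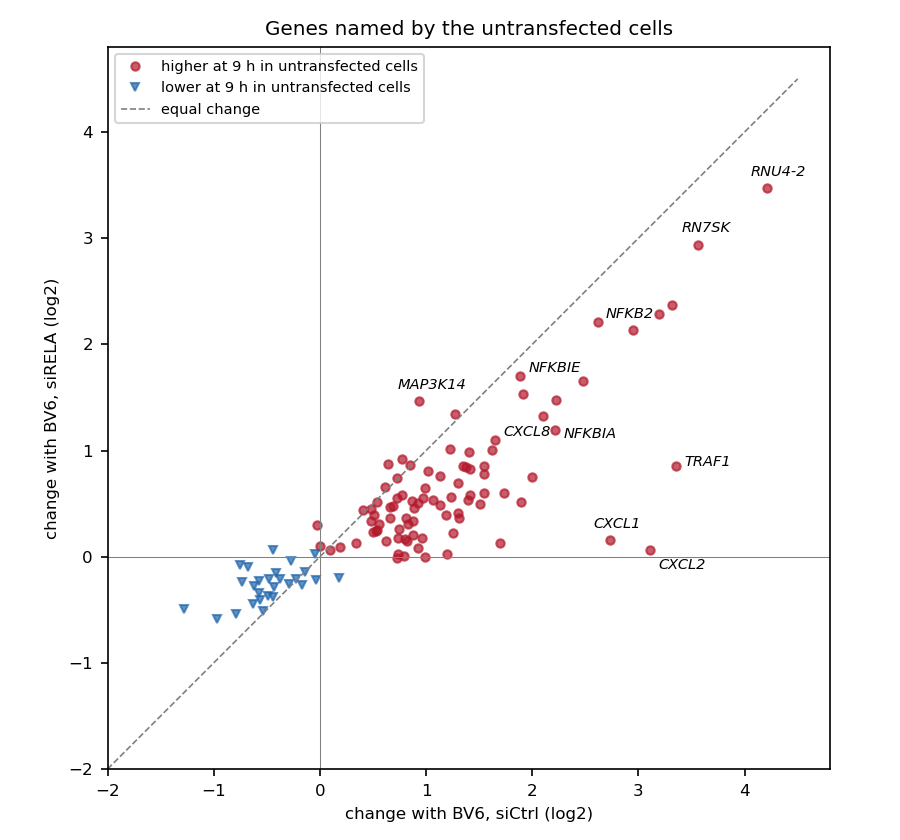
Change with BV6 with siRELA (vertical axis, log2) against siCtrl (horizontal axis, log2) for 89 genes higher (red circles) and 27 lower (blue triangles) at 9 h in untransfected cells; the dashed line marks equal change. Of the 89 genes 79 had a lower siRELA value, CXCL1 and CXCL2 lie near 0 on the vertical axis, and MAP3K14 lies above the line.

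All 27 genes lower at 9 h in untransfected cells were measured, with a median change of -0.23 log2 with siRELA and -0.48 with siCtrl. With siRELA 25 were below 0, and 5 had all BV6 arrays below the untreated ones (beside 5.26% of all genes). Calls with siRELA numbered 0, beside 0.0131% of all genes called lower, so this count does not set them apart. With siCtrl 6 were called, beside 0.943% of all genes called lower there. The lowest siRELA values were those of SPRY1 (-0.58), GCNT1 (-0.54), PPFIBP2 (-0.51) and NREP (-0.49). The 1 gene that fell with siRELA, OASL, is not among the 27.

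Levels after BV6 with siRELA also differed in where they stood relative to untreated siCtrl cells, given here as means ± SD (n = 3 each) and with no test. NFKB2 averaged 8.39 ± 0.10 log2 in siRELA BV6 cells, against 6.84 ± 0.30 in untreated siCtrl cells, and MAP3K14 averaged 7.83 ± 0.23 against 6.69 ± 0.16, so both stood above. NFKBIA was level with it, at 10.21 ± 0.11 against 10.12 ± 0.34. CXCL8 (8.02 ± 0.33 against 10.26 ± 0.32), CD83 (7.82 ± 0.29 against 8.44 ± 0.12), IL32 (7.22 ± 0.44 against 8.36 ± 0.26) and BYSL (9.56 ± 0.12 against 10.91 ± 0.12) stood below it. Untreated siRELA cells were already low in these 4 genes, at 6.92 ± 0.34 for CXCL8, 6.96 ± 0.14 for CD83, 6.57 ± 0.48 for IL32 and 8.99 ± 0.13 for BYSL. ZSWIM4 was the reverse, with 8.23 ± 0.35 in untreated siRELA cells and 6.85 ± 0.41 in untreated siCtrl cells.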

How the data were processed

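RNA from MDA-MB-231 cells was read on Illumina HumanHT-12 bead arrays. The authors deposited a log2 signal per probe and array in a table called non-normalized, and beside each signal a detection p-value, per the file headers. The software that read the scans was not stated in the labels or headers. They also deposited a series matrix of log2 values with the same set of values on every array. Signals were raised to the power of 2, background-corrected and quantile-normalised over the 24 arrays of the siRNA experiment (limma 3.58.1 in R 4.3.3, neqc with an offset of 16). In all, 8 signal columns and 24 columns of the series matrix were not used here.

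Of 48107 probes, 2 with missing values were dropped and 8 with several gene symbols were left out. The probe with the highest mean among those detected (p under 0.01) on 3 or more of the 6 siRELA arrays stood for its gene. limma fitted 1 mean per group over 8 groups, with 16 residual degrees of freedom, and tested BV6 minus untreated and the difference of 2 such responses. Within each comparison p-values were adjusted by Benjamini-Hochberg across all its tested genes, and a gene was called below 0.05. Genes responding to BV6 in untransfected cells were called the same way in 16 other arrays (2 BV6 arrays at 9 h on slides 3 and 4 against 6 untreated arrays pooled over 0, 9 and 15 h on slide 3), among genes detected on 2 or more arrays.

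Residuals of same-numbered siRELA arrays correlated at 0.116, 0.298 and 0.315 for replicates 1, 2 and 3, and each array correlated best with its own number, so the numbers may pair the samples, which rests on the data and on no label; reported values are from the fit without pairing, and the fit with the number as a block is given where it changes a call. The model was checked on simulated data. Genes named are RELA, the 14 largest rises and 10 largest falls called with siRELA, the 10 most negative and 10 most positive called response differences, the 4 members of each list with the smallest p, and the 6 largest and 6 smallest siRELA changes among genes higher in untransfected cells. Other genes are named where a count of calls or a replicate block calls for it. The members and lists were chosen with earlier results of these data known. The alternatives were the series matrix, no background correction, scaling to a common median, the compared arrays alone, other detection filters, every probe by itself, the replicate or slide as a term, single slides, and leaving out each array.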

Additional observations from a re-analysis of the deposited data

Results flagged for a closer look

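The change with BV6 differed between siRELA and siCtrl cells in the direct test for 4 genes, each smaller with siRELA. The difference (siRELA minus siCtrl) was -3.05 log2 for CXCL2, -2.58 for CXCL1, -2.50 for TRAF1 and -1.57 for SNORA80A. It kept its direction in all 21 alternatives for each gene and passed in 20 for CXCL2, CXCL1 and TRAF1 and in 19 for SNORA80A. Slide 2 alone, with 1 array per group, was the setting in which none of the 4 passed, and the filter on detection on every compared array left none of them to test. CXCL1, CXCL2 and SNORA80A were at or near the array floor in siRELA cells with and without BV6. All 4 genes needed siCtrl arrays to pass the detection filter of this test, so their calls follow in part from it.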

How the results depend on the processing

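None of the 27 genes called with siRELA, and none of the 4 called response differences, changed sign under the alternatives run. Values that were not called did, among them EGR1 (-0.080) and BAK1 (-0.061) on slide 2 alone. CEBPB (-0.070 to 0.540), CHUK (-0.093 to 0.382), SPDEF (-0.631 to 0.144) and STAT5A (-0.054 to 0.359) also crossed 0. So did CD14, CD68, CLDN7, KDM3A, S100A4, SHARPIN, TUBA1B, MAFF, MT1E, EDN1, SSTR2 and SNORA25. Under 1 to 7 of 16 alternatives the medians of these lists changed sign as well, so they have no direction: antioxidant (-0.077 to 0.0737), GADD45 (-0.0387 to 0.0844), A20 (-0.123 to 0.0249), IRF (-0.0537 to 0.0715), ER (-0.0905 to 0.04), MAPK feedback (-0.0158 to 0.0623), chemokine (-0.0828 to 0.557), cIAP (-0.00752 to 0.382), TNF family (-0.00385 to 0.164), control (-0.0148 to 0.0867), leukocyte (-0.293 to 0.0356) and luminal (-0.273 to 0.0899). With siRELA, 26 genes were higher and 1 lower as reported; the counts were 17 and 2 with arrays scaled to a common median, 12 and 0 for probes detected on every compared array, and 1 and 0 on slide 2 alone, where each group has 1 array assumed to vary like the others. The compared arrays alone gave 14 higher, slide 1 alone gave 2 lower, and the replicate block gave 31 higher and 3 lower. Leaving out 1 array gave 17 to 30 higher (17 without BV6 replicate 1) and 0 to 2 lower (0 without BV6 replicate 1 or untreated replicate 2, 2 without BV6 replicate 3). With siCtrl, 168 higher and 72 lower became 86 and 38 when scaled, 107 and 22 with the compared arrays alone, 81 and 31 for probes on every array, 81 and 25 on slide 1, 29 and 3 on slide 2, and 105 to 161 and 28 to 53 without 1 array (105 higher without untreated replicate 3, 107 higher and 28 lower without BV6 replicate 1); the replicate block gave 127 lower.

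For the response difference, the 4 more negative genes became 8 with the replicate block, 9 with slide as a term, 0 for probes on every array, 0 on slide 2 and 4 to 6 without 1 array. The 0 more positive genes became 1 with every probe by itself, 1 with the block, 1 with the slide term and 0 to 1 without 1 array. The siRELA median of genes higher at 9 h, 0.519 log2, was 0.37 on slide 2 and 0.456 to 0.541 without 1 array. That of lower genes, -0.234, was -0.193 on the series matrix, -0.189 without background correction, -0.32 when scaled and -0.3 to -0.226 without 1 array. Untransfected genes higher at 9 h numbered 55 instead of 96 when scaled, and 50 against the 9 h untreated arrays alone, with 5 lower instead of 27. Slide 2 alone, and all alternatives for the genes named from untransfected cells, were chosen after seeing the data. The causes were not tested, except that fewer arrays or probes entered where stated. With 3 arrays a group the precision is limited, and fitted differences of genes near the array floor depend on that floor.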
